A study of Homo sapiens with 3 samples.

Results

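Voltage-gated sodium and calcium channels are the proteins that let Na+ and Ca2+ into excitable cells when the membrane depolarises. All protein-coding genes were taken whose RefSeq symbol is SCN followed by digits and A or B, or begins with CACNA, CACNB or CACNG. This gave 40 channel genes of the 20037 protein-coding genes on chromosomes 1 to 22, X and Y. They comprised 10 sodium channel alpha genes, 4 sodium channel beta genes, 10 calcium channel alpha1 genes, 4 alpha2delta genes, 4 calcium channel beta genes and 8 gamma genes. The accessible regions in and around them were read from ATAC-seq of day 14 neurons. The cells were differentiated with the neurogenic transcription factor NGN2 from KOLF2.1J, a widely used induced pluripotent stem cell line of human origin. In ATAC-seq the Tn5 transposase cuts accessible DNA, so that open regulatory sequence collects more sequenced tags than its surroundings. The 3 biological replicates formed 1 group without an untreated or undifferentiated control, and a single combined list of regions was deposited for them. No value per replicate was analysed here, so the spread between replicates is unknown and every comparison is between places in the genome.

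A sodium channel consists of an alpha subunit, which forms the pore and senses voltage, and beta subunits with a single membrane segment that modify gating and adhere to other cells. A high-voltage-activated calcium channel consists of a pore-forming alpha1 subunit, an extracellular alpha2delta subunit and a cytoplasmic beta subunit, whereas T-type alpha1 subunits can work alone. The gamma genes divide into subunits of the skeletal muscle channel and the TARPs, which traffic AMPA-type glutamate receptors in the brain. In neurons, sodium channels at the axon initial segment start the action potential, and calcium channels of P/Q and N type open at nerve terminals to trigger transmitter release. Each gene was put in a class by the tissue in which it is best known: 20 brain, 5 skeletal muscle, 3 heart, 3 sensory neuron, 2 retina and 7 broad or other genes. CACNB1, CACNA1C and CACNB2 stand under muscle or heart but are also expressed in brain.

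The promoters of 26 of the 40 channel genes matched a RefSeq promoter table (GRCh38.p14), which gives 300 bases from 250 before to 50 after each listed transcription start. Those below were chosen because they span the open and closed promoters described in the results. They are written in the gene's own direction, and capitals mark every CG dinucleotide.
SCN8A, chr12:51590983-51591282, plus strand: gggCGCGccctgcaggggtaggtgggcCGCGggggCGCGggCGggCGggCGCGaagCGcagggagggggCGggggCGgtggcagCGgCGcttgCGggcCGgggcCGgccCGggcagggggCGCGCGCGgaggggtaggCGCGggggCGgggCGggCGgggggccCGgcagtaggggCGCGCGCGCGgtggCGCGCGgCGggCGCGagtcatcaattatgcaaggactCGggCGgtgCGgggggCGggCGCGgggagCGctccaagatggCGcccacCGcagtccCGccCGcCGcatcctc
CACNA1B, chr9:137877532-137877831, plus strand: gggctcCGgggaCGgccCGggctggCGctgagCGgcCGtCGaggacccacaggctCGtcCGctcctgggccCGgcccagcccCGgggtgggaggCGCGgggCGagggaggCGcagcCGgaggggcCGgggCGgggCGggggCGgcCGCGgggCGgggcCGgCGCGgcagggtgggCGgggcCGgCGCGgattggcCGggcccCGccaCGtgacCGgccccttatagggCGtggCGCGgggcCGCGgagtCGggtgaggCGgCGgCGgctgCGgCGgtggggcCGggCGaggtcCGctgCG
CACNA1C, chr12:2052737-2053036, plus strand: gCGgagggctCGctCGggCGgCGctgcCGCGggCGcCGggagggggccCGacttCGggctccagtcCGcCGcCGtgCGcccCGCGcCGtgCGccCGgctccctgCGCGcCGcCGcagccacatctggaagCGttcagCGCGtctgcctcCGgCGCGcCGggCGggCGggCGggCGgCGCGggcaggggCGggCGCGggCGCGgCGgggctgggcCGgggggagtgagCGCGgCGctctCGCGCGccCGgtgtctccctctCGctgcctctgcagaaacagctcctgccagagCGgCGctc
SCN2A, first listed start, chr2:165239164-165239463, plus strand: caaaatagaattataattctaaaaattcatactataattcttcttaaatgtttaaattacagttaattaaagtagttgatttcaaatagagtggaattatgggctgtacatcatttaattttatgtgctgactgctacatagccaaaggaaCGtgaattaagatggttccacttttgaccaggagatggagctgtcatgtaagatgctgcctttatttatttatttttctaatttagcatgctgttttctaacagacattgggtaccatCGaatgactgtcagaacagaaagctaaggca
SCN1A, outer start, chr2:166149112-166149411, minus strand: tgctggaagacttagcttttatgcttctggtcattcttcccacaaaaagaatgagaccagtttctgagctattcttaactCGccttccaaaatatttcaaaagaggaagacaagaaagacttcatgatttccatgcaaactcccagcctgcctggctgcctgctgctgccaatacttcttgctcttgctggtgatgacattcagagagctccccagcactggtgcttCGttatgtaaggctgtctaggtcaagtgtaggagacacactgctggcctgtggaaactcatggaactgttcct
SCN1A, inner start, chr2:166127971-166128270, minus strand: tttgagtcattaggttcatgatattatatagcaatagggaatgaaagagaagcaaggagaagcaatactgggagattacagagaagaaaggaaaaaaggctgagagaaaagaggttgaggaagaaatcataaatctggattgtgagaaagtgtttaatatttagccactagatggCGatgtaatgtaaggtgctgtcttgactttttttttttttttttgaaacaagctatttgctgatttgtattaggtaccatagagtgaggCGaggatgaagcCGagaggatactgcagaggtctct
CACNG6, chr19:53991387-53991686, plus strand: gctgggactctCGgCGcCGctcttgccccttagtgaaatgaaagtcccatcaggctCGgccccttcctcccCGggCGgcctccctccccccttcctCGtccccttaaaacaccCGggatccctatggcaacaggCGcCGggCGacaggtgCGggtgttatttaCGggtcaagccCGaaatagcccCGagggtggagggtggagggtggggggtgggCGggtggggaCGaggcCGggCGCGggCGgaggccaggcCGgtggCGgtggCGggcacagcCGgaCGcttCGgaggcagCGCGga
CACNA1S, chr1:201112377-201112676, minus strand: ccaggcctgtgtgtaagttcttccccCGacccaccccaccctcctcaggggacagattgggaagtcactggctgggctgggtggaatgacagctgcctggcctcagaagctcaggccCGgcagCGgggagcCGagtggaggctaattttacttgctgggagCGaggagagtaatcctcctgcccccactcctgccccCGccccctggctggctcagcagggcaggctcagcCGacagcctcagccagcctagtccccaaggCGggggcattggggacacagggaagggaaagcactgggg

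The first 3 of these promoters held 52, 49 and 54 CG dinucleotides and had accessible regions over or beside them. The SCN2A promoter held 2, with a GC content of 31.7%, and was accessible as well. The outer SCN1A promoter also held 2 and was 21.6 kb from its nearest summit, while the inner SCN1A promoter held 3 and was accessible. The CACNG6 promoter, with 29 CG dinucleotides, was 11.3 kb from its nearest summit. The CACNA1S promoter held 8, and the nearest summit lay 1.89 kb upstream, at an end of the neighbouring gene ASCL5.

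The list gives each region a summit, the position of its highest signal, with a fold enrichment that the authors deposited as a linear ratio over the local background. Distinct regions numbered 65234 genome-wide, and their positions are in hg38, counted from 1. The number of tags behind each summit was worked out from its fold and p-value, and ranged from 58 to 3783 with a median of 189. Counting error was therefore 13.1% at the weakest summit and 7.27% at the median. Intervals on tag counts are exact Poisson 95% intervals, and since PCR-amplified tags are not independent molecules they cover counting error only. The total depth of each library is not recorded in the list. Nuclei were processed in bulk, so a region open weakly in all cells and a region open in few cells cannot be told apart.

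The first question was whether channel genes have an accessible end. A gene was called open at an end when a region summit lay within 1 kb of either outer end of the gene. Of the 40 channel genes 26 were open at an end (65.0%), against 66.7% of all protein-coding genes, and none of the 40 was open at both ends, which 5.36% of all genes are and 4.28% of those of the same length classes. Channel genes are long, with a median length of 111 kb against 24.1 kb, and longer genes are open more often. Protein-coding genes of the same length classes were open at 75.6%, which would correspond to 30.2 of 40 genes. With all summit entries counted, 28 of 40 were open against 68.8%. The count of open channel genes thus sat near the background of all genes and below that of genes of like length.

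By tissue, 15 of 20 brain channel genes were open at an end, against 77% of genes of the same length classes. Of the 5 skeletal muscle genes 2 were open (71.1% of genes of like length), and of the 3 heart genes 2 (80.6%). Sensory neuron genes gave 2 of 3 (78.7%), broad or other genes 5 of 7 (72.0%) and retina genes 0 of 2 (73.7%). Skeletal muscle and heart genes together gave 4 of 8, against 74.7% for their length classes. The brain share was thus close to that of genes of like length, and the muscle, heart, sensory neuron and retina shares were lower in groups of 2 to 5 related genes. No test of these differences was made, because the genes are not replicates and the list has no replicate values.

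The open genes were not spread evenly over gene length. All 9 channel genes of 200 to 500 kb were open (80.7% of all protein-coding genes of that length), but only 4 of the 11 genes of 10 to 50 kb were (69.8%). The 7 closed short genes were SCN4A, CACNG1 and CACNG6 of skeletal muscle, CACNA1F of the retina, SCN2B and CACNG8 of the brain, and CACNB3. Between these lengths, 4 of 6 genes of 50 to 100 kb and 7 of 11 genes of 100 to 200 kb were open, against 76.5% and 77.7%. Of the 2 channel genes over 500 kb (83.5%) CACNA2D3 was open and CACNA1C was closed at its ends. Of the 5 skeletal muscle genes 3 are in the 10 to 50 kb class and closed, so tissue and length cannot be told apart there.

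Where an end was open, its region was weaker than at most genes. The strongest region at the end had a median fold enrichment of 6.37 over the 26 open channel genes, against 10.6 over the 13367 open protein-coding genes. Of the 26, 24 lay below that median, where 50% of all open genes do by definition. In tags the medians were 420.5 and 954, and 23 of 26 were below. The channel regions were also slightly narrower, with a median width of 1160 bp against 1313 bp. Over all open protein-coding genes the medians of the 6 length classes ran from 8.18 (over 500 kb) to 11.5 (10 to 50 kb), all above the channel median.

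**Figure D1:**
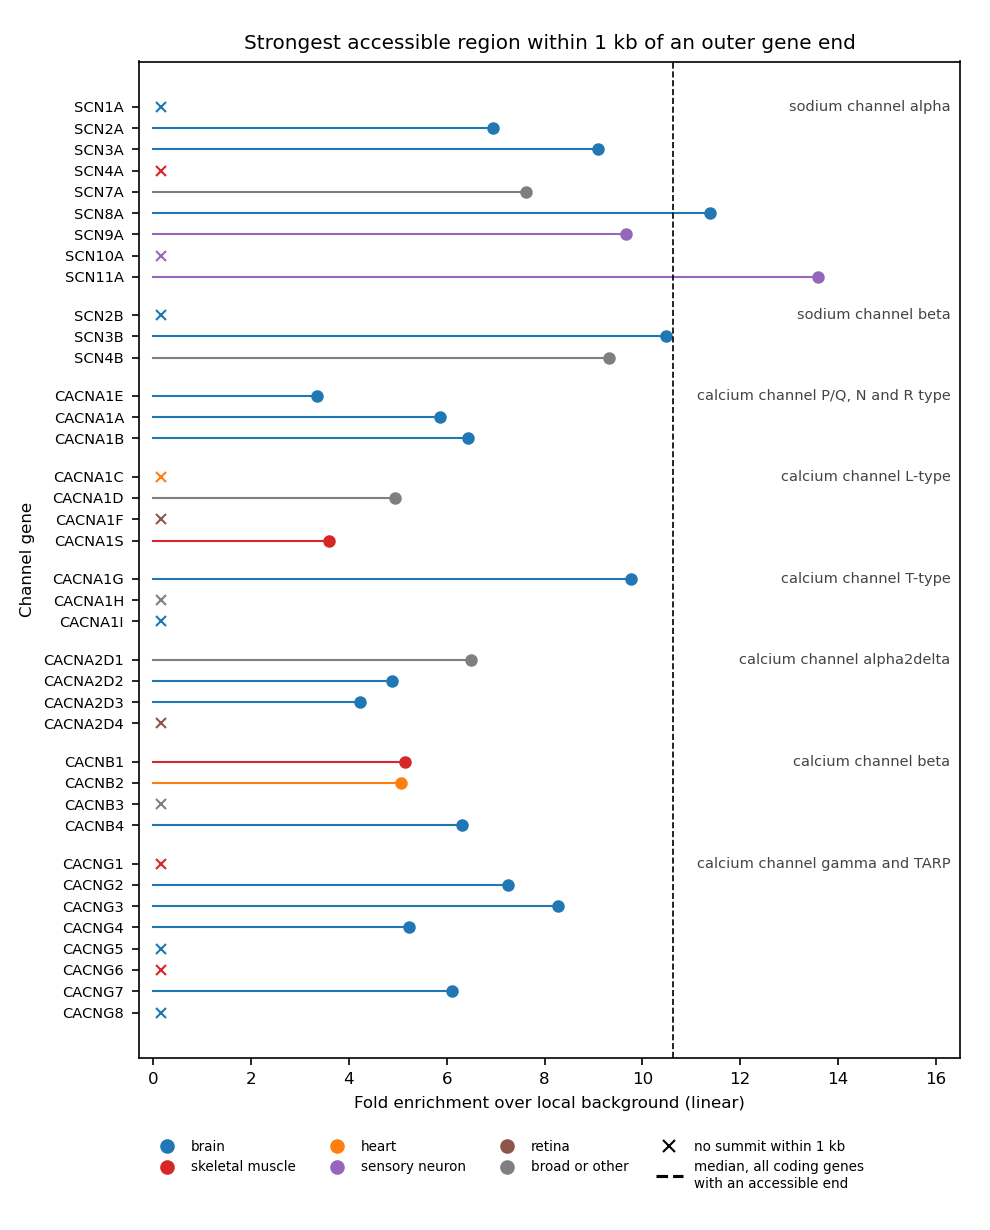
Fold enrichment (linear axis) of the strongest region within 1 kb of an outer end of each channel gene reported here, grouped by role and coloured by tissue class, with a cross for genes without one. The dashed line is the median of all open protein-coding genes (10.6), and only SCN8A and SCN11A lie to its right.

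Among the sodium channel alpha genes 7 of 10 were open (77.4% of genes of like length), with a median of 9.08-fold. SCN8A, which codes for the main channel of the mature axon initial segment and the nodes of Ranvier, had the highest end enrichment of the brain channel genes, at 11.4-fold and 1139 tags (1074 to 1207), in the region chr12:51590334-51591865 that covers its listed start. SCN3A, a channel of the fetal brain, had 9.08-fold and 417 tags (378 to 459) at chr2:165203600-165204326. SCN2A, the channel of young and unmyelinated axons, had 6.95-fold and 259 tags (228 to 293) at chr2:165239224-165240495. The tag intervals of these 3 genes do not overlap, so their order in pooled signal, SCN8A above SCN3A above SCN2A, exceeds counting error. SCN1A, the channel of inhibitory interneurons, had no summit near either outer end.

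The channels of pain-sensing neurons differed among themselves. SCN9A was open at 9.66-fold with 952 tags (892 to 1014), close to the medians of open protein-coding genes (10.6-fold and 954 tags). SCN11A had the highest end enrichment of the channel genes, 13.6-fold with 1169 tags (1103 to 1238), but that region also lies at the end of WDR48, a neighbour that codes for a regulator of deubiquitinating enzymes, and which gene it belongs to was not tested. SCN10A was closed, with its nearest summit 10.2 kb from an end. SCN4A, the sodium channel of skeletal muscle, was closed: its nearest summit lay 19.2 kb away, at an end of GH1. SCN7A, which codes for a sodium-sensing channel of glia and other cells, was open at 7.61-fold with 374 tags (337 to 414).

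Of the 4 sodium channel beta genes 3 were open (64.8% of genes of like length). SCN3B, a beta subunit of the brain, had 10.5-fold and 844 tags (788 to 903) at an end it shares with a long non-coding RNA gene. SCN4B had 9.32-fold and 806 tags (751 to 864). The tag intervals of these genes overlap. SCN2B was closed, with a 9.07-fold region 3.97 kb upstream of its start.

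Among the calcium channel pores, the 3 genes of the neuronal P/Q, N and R types were all open (80.7% of genes of like length) and all weak. CACNA1B, the N-type channel of nerve terminals, had 6.44-fold and 502 tags (459 to 548) at a summit 936 bp into the gene, and a weaker region of 3.16-fold and 242 tags (212 to 274) 8 bp before its start. CACNA1A, the P/Q-type channel, had 5.86-fold and 232 tags (203 to 264). CACNA1E, the R-type channel, had 3.35-fold and 213 tags (185 to 244), the lowest enrichment of the 26. All 3 thus lay well under the 10.6-fold median of open genes.

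Of the 4 L-type genes 2 were open at an outer end (77.6% of genes of like length). CACNA1D, which sets pacemaking in neurons, heart and endocrine cells, had 4.94-fold and 276 tags (244 to 311). CACNA1S, the voltage sensor of skeletal muscle, was counted as open only through a region 778 bp from its 3′ end, with 3.58-fold and 223 tags (195 to 254). CACNA1C, the L-type channel of heart and brain, was closed at both outer ends, and CACNA1F, the photoreceptor channel, had its nearest summit 2337 bp from its start, at CCDC22. Of the 3 T-type genes only CACNA1G was open (76.9% of genes of like length). It had 9.77-fold and 1189 tags (1122 to 1259) in the region chr17:50559982-50560993, the highest tag count of the 26 end regions. CACNA1H was 7.74 kb from its nearest summit, and CACNA1I was 1264 bp from one at its 3′ end.

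The auxiliary calcium channel genes were mostly open at low enrichment. Of the 4 alpha2delta genes 3 were open (79.9% of genes of like length), and of the 4 beta genes 3 (75.3%). CACNA2D1, whose product binds gabapentin, had 6.49-fold and 648 tags (599 to 700), CACNA2D2 had 4.88-fold and 335 tags, and CACNA2D3 had 4.22-fold and 207 tags, the fewest of the 26. CACNA2D4, a retinal subunit, was closed. The beta genes CACNB1 (5.14-fold, 465 tags), CACNB2 (5.06-fold, 488 tags) and CACNB4 (6.31-fold, 424 tags) were open within a narrow range, and their tag intervals of 424 to 509, 446 to 533 and 385 to 466 overlap. CACNB1 is the beta subunit of skeletal muscle, and its summit lay 2 bp from its start.

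Of the 8 gamma genes 4 were open (73.4% of genes of like length), all of them TARPs. CACNG3 had 8.27-fold and 324 tags (290 to 361), CACNG2, the gene of stargazin, had 7.25-fold and 288 tags (256 to 323), CACNG7 had 6.11-fold and 584 tags (538 to 633), and CACNG4 had 5.22-fold and 555 tags (510 to 603). Fold and tag count rank these 4 genes differently: the local background was 105 tags at CACNG4 and 94.8 at CACNG7 but 38.3 at CACNG3 and 38.9 at CACNG2. The muscle genes CACNG1 and CACNG6 were 25.4 and 10.8 kb from their nearest summits, and the TARP genes CACNG5 and CACNG8 were 3.23 and 2.49 kb away.

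Few channel genes shared their open end with another gene. An end of another gene lay within 1 kb of the same summit for 4 of 26 channel genes (15.4%), against 43.3% of all open protein-coding genes. They included SCN11A with WDR48, and CACNG2 and SCN3B with a long non-coding RNA each.

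The 1 kb limit separated neighbouring values for a few genes. Just inside it lay CACNA2D2 at 579 bp, CACNA1S at 778 bp, CACNA1E at 791 bp and CACNG7 at 980 bp from the nearest summit. Just outside it lay CACNB3 at 1010 bp, CACNA1I at 1264 bp, CACNA1F at 2337 bp and CACNG8 at 2487 bp.

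The outer end of a gene is not always where transcription starts, so the listed starts were examined next. For the 26 channel genes in the promoter table there were 40 listed starts, and 8 genes had more than 1. A summit lay within 1 kb of a listed start in 20 of 26 genes (76.9%), against 71.2% of the 15843 protein-coding genes in the table and 83.7% of those of the same length classes. A further 3 genes were open at a start but not at an outer end. Counted at either place, 29 of the 40 channel genes were open (72.5%), against 70.7% of all protein-coding genes and 82.2% of those of the same length classes. By class these were 16 of 20 brain genes (84.1% of genes of like length), 3 of 3 heart genes (89.7%) and 2 of 5 skeletal muscle genes (75.2%). The other classes gave 2 of 3 sensory neuron genes (87.0%), 0 of 2 retina genes (79.7%) and 6 of 7 broad or other genes (77.2%). As at the outer ends, the channel share lay near that of all genes and below that of genes of like length.

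SCN1A was the brain gene added in this way. The start of its outer promoter, shown above, was 21.6 kb from any summit, whereas the inner promoter, 21.1 kb into the gene, had a summit 425 bp away with 5.11-fold and 481 tags (439 to 526). CACNA1C was the heart gene added: its only listed start lies 82.2 kb inside the gene, and the CG-rich promoter there had a summit 26 bp away with 4.54-fold and 337 tags (302 to 375). CACNB3, a beta subunit common in brain, had open starts 1.09 and 4.02 kb inside its outer end, with 4.88-fold and 768 tags (715 to 824) and 3.37-fold and 527 tags (483 to 574).

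The other 11 channel genes had a summit at neither an outer end nor a listed start: SCN2B, SCN4A, SCN10A, CACNA1F, CACNA1H, CACNA1I, CACNA2D4, CACNG1, CACNG5, CACNG6 and CACNG8. Of these 5 had a start in the table and 6 did not, so for the 6 only the outer ends were seen. They include 3 of the 5 skeletal muscle genes, both retina genes and 4 of the 20 brain genes.

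Genes with several starts showed which of them were accessible. CACNB2, a beta subunit of heart and brain, had 4 listed starts at 0, 120, 200.3 and 260.2 kb from its outer end, and all were open, at 5.06, 4.15, 5.13 and 5.52-fold. CACNB4, a brain beta subunit, had 5 listed starts, of which 4 were open. Its inner region, chr2:151972979-151974310 at a start 125 kb into the gene, had 10.8-fold and 810 tags (755 to 868), above the 6.31-fold and 424 tags (385 to 466) of the region at its outer end, and the tag intervals do not overlap. CACNA1E was listed with a single start 166 kb inside its outer end, where a region of 5.59-fold and 656 tags (607 to 708) exceeded the 3.35-fold and 213 tags at the outer end. SCN2A had a second open start 1.65 kb downstream of the first, with 3.33-fold and 126 tags (105 to 150), fewer than the first. SCN4B was open both at its outer end and at its listed start 7.39 kb inside, with 9.94-fold and 616 tags (568 to 667) at the latter. SCN11A and SCN7A each had an inner start without a summit within 1 kb.

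The sequence of the listed promoters was set beside these calls. CpG content was measured as the observed number of CG dinucleotides over the number expected from the base composition. At a ratio above 0.6, 19 of 20 channel promoters were open (95%), against 89.8% of the 13794 such promoters of all protein-coding genes. The exception was CACNG6, at 0.783. At 0.6 or less, 10 of 20 channel promoters were open (50.0%), against 28.5% of 8405. The 10 belong to 8 genes, and the shares were not matched for gene length. The one of CACNA2D2 was open through a region whose summit lay 31 bp from a CG-rich start of the same gene. CG-rich channel promoters were thus about as often open as others of their kind, and CG-poor ones more often in this small set.

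The lower enrichment remained within the CG-rich promoters. Open channel promoters above a ratio of 0.6 had a median of 5.86-fold, against 11.0-fold for all such promoters. Several promoters can share a region, and with each region counted once the 17 channel regions had a median of 5.52-fold against 10.8-fold, with 15 of 17 below. In tags the medians were 465 and 995. Among the CG-poor promoters the medians were 5.36 and 7.47-fold. The CACNA1B and CACNA1C promoters printed above, with ratios of 0.957 and 1.07, were as CG-rich as that of SCN8A at 1.08. Yet the strongest region within 1 kb of the start carried 1139 tags at SCN8A, 502 at CACNA1B and 337 at CACNA1C. A weaker CACNA1B region, with its summit at the start, carried 242. The SCN8A region covers the printed bases, but its summit lies 349 bp before the start and outside them. The CACNA1B region of 502 tags lies wholly beyond the printed bases.

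**Figure D2:**
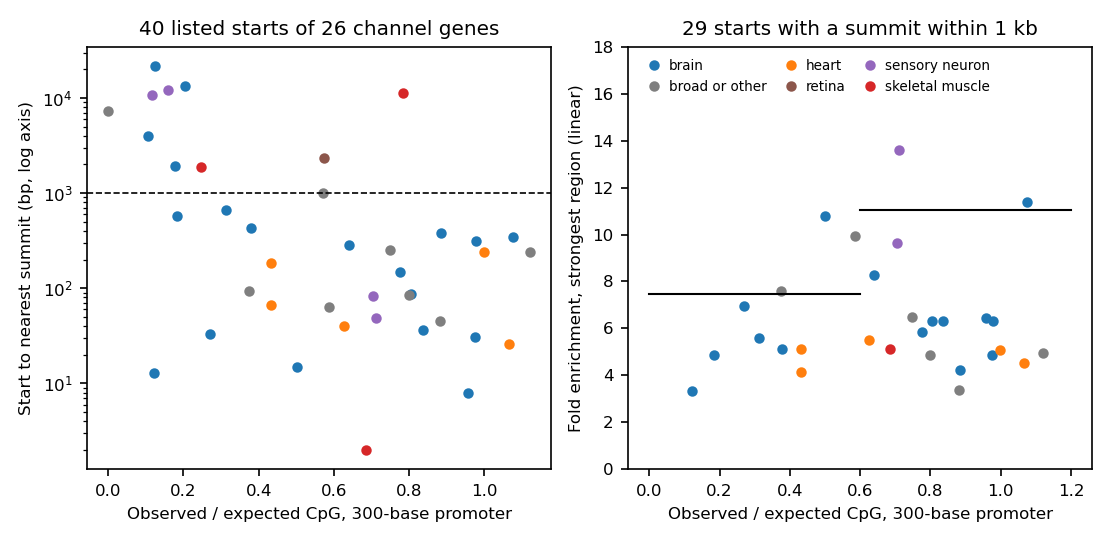
Left, distance from each of the 40 listed channel starts to the nearest summit (log axis, bp; dashed line at 1 kb) against the observed over expected CpG ratio of its 300-base promoter; right, fold enrichment (linear axis) of the strongest region within 1 kb for the 29 open starts. Horizontal lines on the right are the medians of all open protein-coding promoters above 0.6 (11.0) and at 0.6 or less (7.47), and most channel points lie below them.

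Short words were searched in the 300 bases on both strands, and a match describes letters only; none of the words contains another. The GC box GGGCGG stood in 22 of 40 channel promoters (55.0%), against 56.3% of all 22199 promoters. The E-box CAGATG stood in 9 (22.5% against 12.2%) and the E-box CAGCTG in 10 (25.0% against 18%). The TATA box TATAAA stood in 2, the inner start of SCN2A and the start of SCN10A (5.0% against 9.47%). The cyclic AMP response element TGACGTC stood only in SCN11A (2.5% against 4.09%). Of 2 words from the binding element of the neuronal gene repressor REST, GGACAGC stood in 1 promoter of CACNB4 (6.64% of all promoters) and TCAGCAC in those of CACNG3 and SCN2A (4.26% of all promoters). Overlapping promoters of 1 gene share sequence, so these are not 40 separate promoters.

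The next question was how many candidate regulatory regions lie near channel genes. A region was called distal when its summit was more than 1 kb from every outer gene end, and distal regions within 50 kb of an outer end of the gene, on either side of it, were counted. Regions at starts inside a gene, such as those of CACNB3, are distal by this measure. Channel genes had a median of 4 distal regions, against 2 for all protein-coding genes. At least 5 were found at 17 of 40 channel genes (42.5%), against 15.9% of all genes. The window grows with gene length up to 100 kb and is fixed beyond that. Each gene was also set against the median of its own length class. Of the 40 channel genes 25 lay above it, 5 equalled it and 10 lay below, while 42.2% of all genes lie above theirs. Among regions above the median fold only, both medians were 1. Neighbouring channel genes share part of these regions.

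The median was 4 for brain genes, 3 for skeletal muscle genes and 4 for heart genes, so these 3 classes differed by 1 region or less in the median. Sodium channel alpha genes had a median of 5 and T-type genes of 6, while the auxiliary beta genes of both families had 3. The lowest count was 0 at CACNA1B and the highest 10 at CACNG7. CACNA2D2 had 8, and CACNA1S, CACNA1G and SCN3A had 7 each. CACNA1S thus had a high count of distal regions although its own start was closed.

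**Figure D3:**
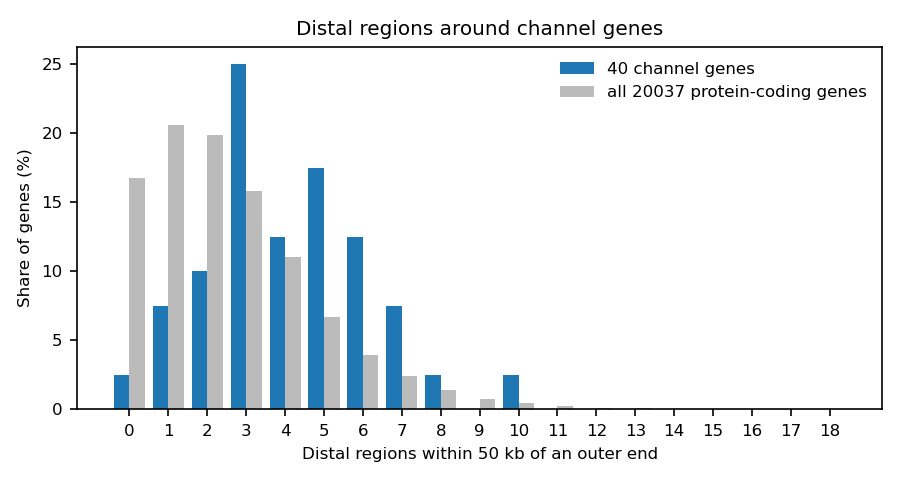
Share of genes (%, vertical axis) by how many distal regions they have up to 50 kb from an outer end, for the 40 channel genes and all 20037 protein-coding genes. The channel genes have a median of 4 and all genes, which are shorter and not matched for length, a median of 2.

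The strongest distal regions of these 5 genes were not all in intergenic sequence. SCN3A had the strongest, at chr2:165067855-165068679, 19.3 kb beyond its lower-coordinate end and outside any protein-coding gene, with 16.1-fold and 1414 tags (1341 to 1490). The strongest one of CACNG7 was at chr19:53878998-53880053, 29.8 kb away, with 14.6-fold and 1628 tags (1550 to 1709), also outside any protein-coding gene. The strongest of CACNA2D2 lay inside HYAL2, 41.1 kb away, with 11.9-fold and 1945 tags (1860 to 2033). That of CACNA1S lay inside TMEM9, 42.1 kb away, with 11.6-fold and 1012 tags (951 to 1076), and that of CACNA1G inside EPN3, 18.5 kb away, with 9.22-fold and 973 tags (913 to 1036). The median fold over all distal regions in the list was 5.11. Each region here was picked as the strongest of its gene, so no comparison with that median is drawn. Which gene any of these regions acts on was not measured.

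Within the genes, 165 regions had their summit inside a channel gene, and 146 of these were distal. Pooled over their length this was 2.43 regions per 100 kb, against 2.37 for all protein-coding genes. The median over the 39 channel genes of at least 10 kb was 2.1 per 100 kb, against 1.81, and 20 of 39 lay above the median of their length class, against 48.4% of all genes. With all summit entries counted the medians were 5.53 and 5.63. Density inside channel genes therefore sat near the background. No region was held by 6 of 40 channel genes (15%), against 48.8% of all protein-coding genes, which are shorter, and 24.2% of those of the same length classes. The 6 were SCN4A, CACNA1F, CACNG1, CACNG5, CACNG6 and CACNG7, which include 3 of the 5 skeletal muscle genes.

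CACNB3 had the highest density, 13.8 per 100 kb, from 2 regions in a gene of 14.5 kb. They were chr12:48814482-48816021 and chr12:48818006-48819049, and both lie at listed starts of the gene. At the other extreme of the genes with any region, CACNA1B had 0.810 per 100 kb. Its only region beyond the start was a wide one of 3.06-fold and 107 tags (88 to 129), 145 kb into the gene, and 144 kb of the gene before it had no summit. CACNA1E, the R-type gene of 490.4 kb, held 21 regions, the most of any channel gene, at 4.28 per 100 kb. That density is at the 89.1 percentile of genes of 200 to 500 kb, and the density of CACNA1B is at the 10.1 percentile.

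Other long genes held many regions: CACNA1C and CACNA2D3 16 each, CACNA2D1 15 and CACNB2 14. The strongest region inside any channel gene was the 17.1-fold region of 1651 tags in CACNA1C, which lies 41 bp from an end of DCP1B, a gene for an mRNA decapping factor that overlaps it. CACNA2D1 held one of 15.4-fold and 777 tags, CACNA1A one of 13.4-fold and 659 tags, and CACNB4 one of 11.9-fold and 577 tags. SCN2A held a 14.9-fold region of 748 tags at chr2:165293357-165294499, 54.5 kb into the gene, which is above its own promoter region of 6.95-fold and 259 tags. In CACNA1A, CACNA2D1 and SCN2A the strongest region of the gene was thus an internal one and not the one at the start.

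**Figure D4:**
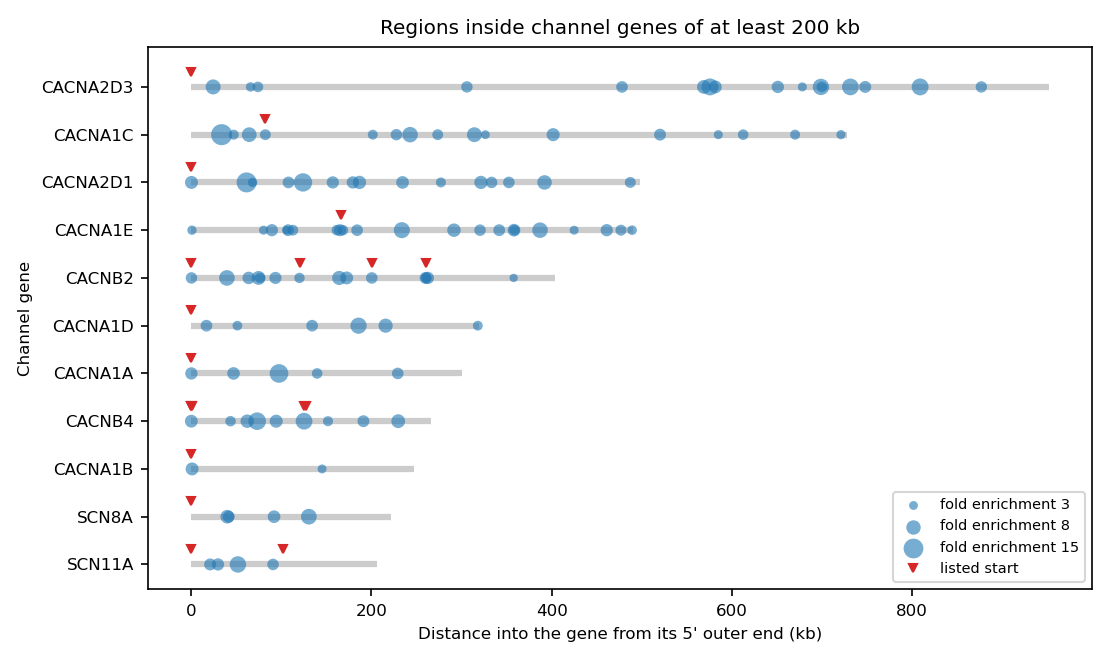
Regions (points, area growing with fold enrichment) along the 11 channel genes of at least 200 kb, by distance in kb from the gene's 5′ outer end; triangles mark listed starts. CACNA1E holds 21 regions and CACNA1B 2, and the start of CACNA1C used in the promoter table lies inside the gene.

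Some channel genes had long stretches without a summit. The longest was 232 kb in CACNA2D3, followed by 144 kb in CACNA1B and 119 kb in CACNA1C. In SCN10A a stretch of 109 kb, 91.4% of the gene, had none.

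Channel genes lie partly in tandem clusters, and the clusters differed. The 1407 kb from SCN3A through SCN2A, SCN1A and SCN9A to SCN7A on chromosome 2 held 44 regions, of which 14 lay inside these genes and 36 were distal, and 4 of the 5 genes were open at an end. That is 3.13 regions per 100 kb of cluster, but 30 of the 44 regions lay between these genes, some of them at ends of other genes. In the TARP clusters, CACNG4 alone was open among CACNG5, CACNG4 and CACNG1 on chromosome 17, and CACNG7 alone among CACNG7, CACNG8 and CACNG6 on chromosome 19. Each of these clusters held 5 regions, which is 2.26 per 100 kb on chromosome 17 and 4.84 on chromosome 19. Both clusters join brain TARP genes with a muscle gamma gene, and in both the muscle gene was closed.

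**Figure D5:**
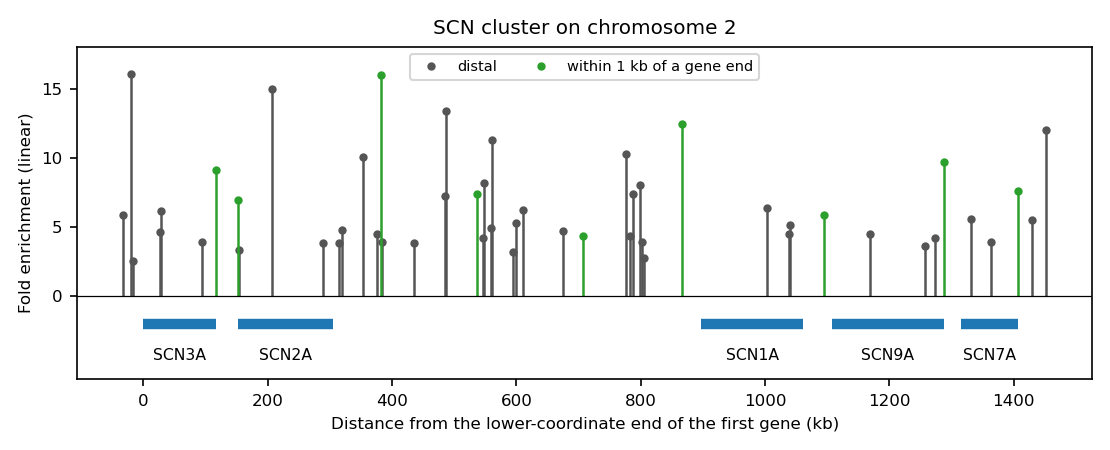
Fold enrichment (linear axis) of each region along the SCN cluster of chromosome 2, by distance in kb from the lower-coordinate end of the first gene, with bars for the channel genes. Regions within 1 kb of any gene's end are green and distal ones grey, and the strongest distal region, of 16.1-fold, lies 19.3 kb before SCN3A.

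Genes whose products bind, anchor or inhibit these channels were counted in the same way. Of 30 such partner genes 25 were open at an end (83.3%), against 73.2% of genes of the same length classes, with a median end enrichment of 7.97-fold. All 5 genes of axonal anchor proteins (among them ANK2, ANK3, SPTBN4 and NFASC) were open (80.6% of genes of like length). Of these 5, 4 had more distal regions than the median of their length class. All 3 genes of the NALCN sodium leak complex (80.7%), all 3 STAC genes (65.8%) and all 5 genes for calcium sensors and the ubiquitin ligase NEDD4L (68%) were open. The 5 closed partners included FGF11, RYR1, RIMS2 and RRAD, of which RYR1 is the calcium release channel of skeletal muscle. The nearest summits of these 4 lay 1168, 1155, 1055 and 1246 bp from an end, just past the 1 kb limit. The other closed partner, REM1, was 14620 bp from its nearest summit. FGF11 also had a summit 24 bp from a listed start. Partner genes were thus open somewhat more often than channel genes, and 20 of the 25 open ones also fell below the median fold of open genes.

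Markers of the cells were read as a check of the label, each list beside the share of genes of the same length classes. At an outer end 5 of 7 pan-neuronal genes were open (76.4%), with a median of 7.91-fold, so this count sat near its background. Of 8 skeletal muscle markers only CKM was open (57.4%) and of 7 heart markers only TNNT2 (61.3%), while MYOD1, MYF5, MYF6 and MYOG were closed. Among 3 pluripotency genes POU5F1 and NANOG were closed and LIN28A was open (56.6%). Glutamatergic markers gave 1 of 2 (69.8%), with SLC17A6 open, and GABAergic markers 3 of 3 (65.4%). Sensory neuron markers gave 2 of 5 (67.2%), POU4F1 and ISL1, and glial markers 2 of 5 (67.4%), AQP4 and OLIG2. With listed starts counted as well, the pan-neuronal count became 7 of 7 (82.9%), through TUBB3 at 103 bp and RBFOX3 at 35 bp, and the glial count 3 of 5 (71.5%), through MBP at 625 bp. No other marker list changed its count under that rule. The part of these cell types in the channel results was not tested.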

How the data were processed

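ATAC-seq was carried out on 3 samples of KOLF2.1J NGN2 neurons at day 14, and the authors deposited 1 list of regions for all of them, whose name in the labels gives it as the optimal set by irreproducible discovery rate. The aligner, the peak caller and their settings are not given in the sources used here. The build is hg38, per the submitters' processing notes. Each summit was deposited with a fold enrichment, a linear ratio over local background, and with −log10 p. The deposited score per entry is a whole number from 540 to 1000 whose scaling is not stated. The list keeps only regions past the authors' threshold, so a closed gene may hold weaker signal.

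The 145092 entries were merged into 65234 distinct regions, each with its entry of highest −log10 p. Of these 48428 lay more than 1 kb from every gene end. Tag counts were recovered as the whole number that satisfies both the ratio (with 1 added to tags and background) and a Poisson tail. The worst miss was 0.00079 units of −log10 p, and the next whole number missed by a median of 0.266. Gene ends came from RefSeq for GRCh38.p14 and starts and promoter sequences from its promoter table. All genes were computed on the whole list. There is no test, since the list has no value per replicate: counts and medians are set beside all protein-coding genes and the same length classes (edges at 10, 50, 100, 200 and 500 kb). Every channel gene enters the counts, but the values of a few items selected by the rule are not reported here. Regions were named by rule: the strongest at each gene's end, the strongest distal one for the 5 genes with most, and all those of the genes with the highest and lowest density. The rule named 6 genes with no region as lowest, and CACNA1B, the strongest regions inside genes and the genes with several starts were added after their values were seen. The CpG limit of 0.6 was also chosen then. Members and lists were chosen with earlier results of these data known. Alternatives changed the window, the overlap, the threshold, the merging, the end used and the meaning of distal. Python 3.11.15, numpy 2.4.6, pandas 2.3.3, scipy 1.17.1 and matplotlib 3.10.9 were used. On data simulated with the formulas that the recovery inverts, 100% of 20000 tag counts were recovered, which checks the code only.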

Additional observations from a re-analysis of the deposited data

How the results depend on the processing

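Of 40 alternative values 29 stayed within 1.5 times the count or within a binomial interval of the median over channel genes. These limits are yardsticks and do not measure robustness. The genes are related and not replicates, and counts were compared without their denominators. The side on which channel genes lay relative to all genes turned under some alternatives. The 26 open channel genes became 22 within 500 bp, 28 within 2 kb, by overlap or with all summit entries, and 20 of 26 at listed starts. The open share, below that of all genes in the report, lay above it with all summit entries (28 of 40 against 68.8%) and at listed starts (76.9% against 71.2%). With regions above the median fold only, 16 channel genes were open (56.4% of all genes), with 0 skeletal muscle and 0 heart genes. Open skeletal muscle genes fell to 1 within 500 bp and to 1 of 3 at listed starts. The median of 4 distal regions became 2 within 20 kb (all genes 1), 7 within 100 kb (all genes 4), 1 above the median fold (all genes also 1, so that the excess was lost) and 7 with all summit entries (all genes 4). With regions at listed starts also left out, an alternative chosen after seeing the data, it was 3.5 (all genes 2). The median density became 0.688 per 100 kb above the median fold (all genes 0) and 5.53 with all entries, where it lay below that of all genes (5.63). By tag count, 23 in place of 24 of the 26 end regions lay below the median.

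No paired analysis was possible because the list pools the 3 samples and carries none of their values, so no replicate was left out in turn. The spread between replicates and each library's depth are therefore unknown, and only counting error is known. Tissue classes of 2 to 20 related genes leave each share to a few genes, and 14 channel genes were judged by their outer ends alone.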
